A study of Mus musculus with 16 samples.

Results

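Chromatin accessibility at 9 genes of gluconeogenesis was compared across 8 mouse tissues in the fed and the fasting state. The genes were Pck1, Pck2, G6pc, Fbp1, Fbp2, Pcx, Ppargc1a, Sds and Tat, taken by name out of 21951 protein-coding genes with an annotated start. The assay was ATAC-seq, in which the Tn5 transposase cuts open DNA, and each of the 16 libraries came from tissue pooled from 3 male C57BL/6 mice. The tissues were liver, kidney, muscle, heart, brown adipose, white adipose, spleen and lung, the fasting mice had gone without food for 24 h, and all mice were 12 weeks old on arrival. There was 1 library per tissue and state, so no replicate spread could be computed, and the tissues of a state come from shared pools of animals. A bulk tissue holds several cell types, and fewer cells of a type cannot be told apart here from less open chromatin per cell.

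Gluconeogenesis makes glucose from lactate, glycerol and amino acids. It runs in hepatocytes and in the proximal tubule of the kidney and rises when food is withheld, under glucagon, glucocorticoids and low insulin. Pyruvate carboxylase (Pcx) and phosphoenolpyruvate carboxykinase (cytosolic Pck1, mitochondrial Pck2) bypass pyruvate kinase, fructose-1,6-bisphosphatase (Fbp1, and Fbp2 of muscle) bypasses phosphofructokinase, and glucose-6-phosphatase (G6pc) releases glucose. Serine dehydratase (Sds) and tyrosine aminotransferase (Tat) feed amino acid carbon into the pathway, and the coactivator Ppargc1a switches on its genes in fasting liver.

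A promoter peak is a listed summit within 3 kb of any annotated start of the gene, and a peak was called at q under 0.01. Its strength is given as the percentile of its -log10 p among all rows of the same list, from 0 where no summit was listed to 100 for the strongest. The lists held between 298996 and 299529 rows. In 8 of the 16 every row had q under 0.01, so there the length of the list, and not q, decided what was listed. The expected tags of the quietest genome stretches, which are proportional to depth, ran from 2.8 to 12.77, and hardly differed between states in liver (2.8 fed, 2.82 fasting) or kidney (4.67 fed, 4.64 fasting). Of 8 lists of tissue marker genes, 7 had their highest mean promoter percentile in their own tissue. The white adipose list was the exception, at 89.9 in white and 93.6 in brown adipose. The 4 liver markers measured averaged 91.5 in liver and 65.7 in kidney.

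The stretches below carry the findings that follow, and are read from GRCm38 on the strand of each gene. None of them overlaps an annotated exon. Capitals mark matches, on either strand, to the letters of forkhead (TGTTTAC), CRE (TGACGTCA), C/EBP (TTGCGCAA), HNF4 (CAAAGTCCA), ERR (TCAAGGTCA), HNF1 (GTTAATNAT), a CRE variant (TTACGTCA) and an insulin response element (TGTTTTG), the last 2 added after the sequences were seen. The first pair is Pck1, just before its start and at the adipose summit farther upstream.
Pck1 before the start, chr2:173152798-173153047: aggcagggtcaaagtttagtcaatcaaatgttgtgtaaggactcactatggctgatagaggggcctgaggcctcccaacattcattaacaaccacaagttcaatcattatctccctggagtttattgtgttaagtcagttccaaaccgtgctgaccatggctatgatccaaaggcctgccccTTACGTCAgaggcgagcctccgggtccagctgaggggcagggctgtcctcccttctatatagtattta
Pck1 adipose summit, chr2:173151808-173152007: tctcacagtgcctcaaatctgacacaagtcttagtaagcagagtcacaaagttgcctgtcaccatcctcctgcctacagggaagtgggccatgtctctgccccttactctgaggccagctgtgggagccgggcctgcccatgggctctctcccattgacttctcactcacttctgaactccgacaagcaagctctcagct
The next stretch precedes the start of G6pc, where a peak was called in liver and kidney libraries alone.
G6pc before the start, chr11:101367311-101367560: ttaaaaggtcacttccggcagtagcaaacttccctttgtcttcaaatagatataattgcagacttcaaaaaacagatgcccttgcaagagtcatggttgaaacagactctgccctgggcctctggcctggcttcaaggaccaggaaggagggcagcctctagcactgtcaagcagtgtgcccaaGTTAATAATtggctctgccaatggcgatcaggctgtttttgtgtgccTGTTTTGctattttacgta
The next holds a summit upstream of Tat listed in liver alone.
Tat upstream summit, chr8:109986357-109986556: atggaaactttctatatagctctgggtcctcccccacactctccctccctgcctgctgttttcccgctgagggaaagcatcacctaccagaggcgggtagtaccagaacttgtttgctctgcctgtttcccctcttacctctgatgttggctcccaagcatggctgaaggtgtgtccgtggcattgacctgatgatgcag
The last 4 precede alternative starts of Ppargc1a and Pcx that differed between tissues.
Ppargc1a first start, chr5:51567727-51567926: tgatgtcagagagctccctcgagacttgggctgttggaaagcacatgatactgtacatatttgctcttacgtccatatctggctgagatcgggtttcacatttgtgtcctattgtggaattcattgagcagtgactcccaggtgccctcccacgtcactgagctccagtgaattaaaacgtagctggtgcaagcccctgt
Ppargc1a downstream start, chr5:51553923-51554122: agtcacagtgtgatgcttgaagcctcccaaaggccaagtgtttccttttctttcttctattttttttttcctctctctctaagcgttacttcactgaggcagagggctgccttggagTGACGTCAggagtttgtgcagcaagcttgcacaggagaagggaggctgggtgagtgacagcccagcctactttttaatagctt
Pcx first start, chr19:4510272-4510471: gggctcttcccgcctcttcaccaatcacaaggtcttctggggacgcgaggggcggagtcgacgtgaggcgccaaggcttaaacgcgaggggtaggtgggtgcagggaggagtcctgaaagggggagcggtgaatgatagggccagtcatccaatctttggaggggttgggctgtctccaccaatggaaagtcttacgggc
Pcx downstream start, chr19:4594146-4594345: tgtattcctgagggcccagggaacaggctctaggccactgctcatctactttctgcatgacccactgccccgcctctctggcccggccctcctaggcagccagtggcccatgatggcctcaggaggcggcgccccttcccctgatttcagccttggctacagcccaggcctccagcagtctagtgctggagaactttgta

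The Pck1 stretch held the CRE variant from -68 to -61, counted from the first start, and the G6pc stretch held an HNF1 match from -66 to -58 and an insulin response match from -19 to -13. The stretch before the downstream start of Ppargc1a held the CRE at 13721 to 13728 bp from the first start. In windows of 300 bp around all fed liver summits with q under 0.01, the CRE variant was found in 0.24%, the HNF1 letters in 1.18%, the insulin response letters in 7.9% and the CRE in 0.579%. A match describes the letters in these windows and is not a measured binding site. The Pcx stretch before its first start held 11 CpG pairs in 200 bases at 60.5% G and C, and the one before its downstream start held 4 at 62.0%.

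In liver all 9 genes had a promoter peak in both states, and in kidney 7 of 9 did. The counts were 6 of 9 in heart, brown adipose and white adipose, 5 of 9 in spleen and lung, and 4 of 9 in muscle. Among all protein-coding genes the share open in both states was 70.9% in liver, 72.8% in kidney, 73.1% in spleen, 72.3% in lung, 70.6% in white adipose, 69.1% in muscle, 67.8% in brown adipose and 67.7% in heart. The background thus varied little between tissues, while the count of the 9 genes ran from 4 to 9. By single library, fed white adipose also had all 9 and fasting white adipose 6, against 74.4% and 72.6% of all genes. Fed brown adipose had 8 and fasting brown adipose 6, against 71.2% and 69.3%, and fed kidney had 8, against 73.9%. The fasting adipose libraries were shallower than the fed ones, and the part of depth was not tested. Pck2, Fbp2, Pcx and Ppargc1a had a peak in all 16 libraries, against 59.8% of all genes, and the other 5 genes did not.

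**Figure D1:**
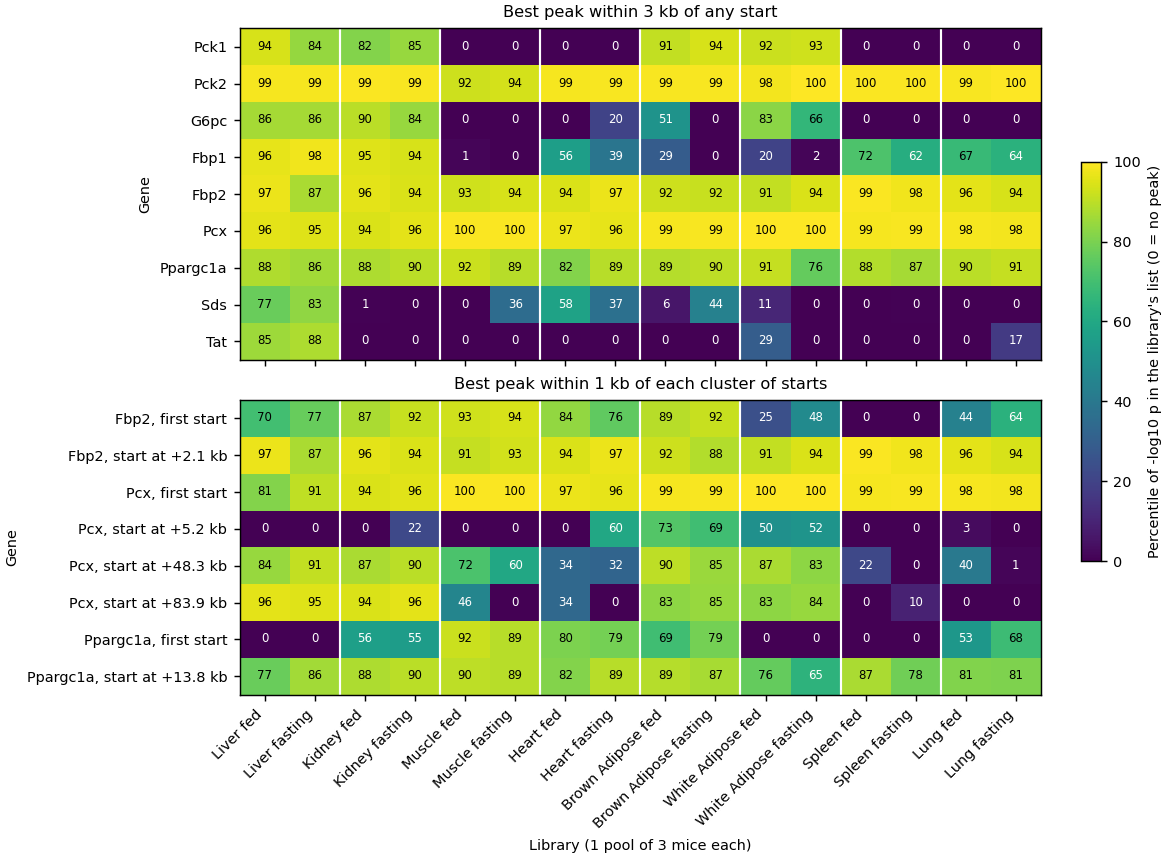
Promoter percentile (0 to 100, 0 where no summit was listed) of each gene in each library, 1 library of 3 pooled mice per tissue and state. The upper panel takes the best summit within 3 kb of any start, the lower the best within 1 kb of each cluster of starts of Fbp2, Pcx and Ppargc1a, and G6pc, Fbp1 and the Pcx start at 83.9 kb are brightest in liver and kidney.

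Whether liver and kidney stood above the other tissues was asked for each gene with an exact permutation test over the 28 choices of 2 tissues, one-sided, on the mean percentile of the states. It cannot give a p below 0.0357. G6pc and Fbp1 reached that p, which 6.34% of all genes did. The other 7 genes did not. After Benjamini-Hochberg (BH) adjustment over all 21951 genes the smallest value was 0.564, so none of the 1391 genes with an unadjusted p under 0.05 passed.

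G6pc catalyses the last step, which lets liver and kidney release free glucose. Its promoter percentile was 86.4 in fed and 86.4 in fasting liver, and 89.8 and 84.4 in kidney. White adipose gave 82.6 and 66.4, fed brown adipose 51.3 and fasting heart 20.3, where the summit did not pass q. Every other library was at 0. The mean over liver and kidney lay 68.4 points above the mean of the other tissues (exact permutation p = 0.0357, one-sided, BH 0.564). Ranking by fold enrichment instead left a difference of 48.06 points with an exact permutation p of 0.107.

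The adipose signal at G6pc lay away from its start. Between -200 and 300 bp from the start, summits were listed in the 4 liver and kidney libraries and in no other. They held 54 tags in fed liver, 91 tags in fasting liver, and 215 and 194 in kidney. Just outside that window, at 314 bp, lay the fasting heart summit of 20.3, which did not pass q. The adipose summits lay between -3000 and -2600 bp, where liver reached 78.8 and 83.6 and kidney 89.8 and 81.8. White adipose reached 82.6 and 66.4 there, fed brown adipose 51.3 and fasting heart 12.5. With summits kept to 1 kb around the start, the liver and kidney mean stood 84.2 points above the others, at the smallest exact permutation p of 0.0357 (BH 0.831 over clusters of starts). That p was reached by 4.3% of all 48620 clusters of starts.

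Farther out, an intergenic locus 11570 bp downstream of the G6pc start (chromosome 11, 101378246 to 101379787) was the strongest of the region in liver. It had percentiles of 96.5 in fed liver, 98.0 in fasting liver, 64.3 and 87.9 in kidney, 92.3 and 92.2 in white adipose, and 96.8 and 97.3 in brown adipose. Apart from 21.5 in fed spleen it was not listed in another tissue. A locus at -5127 bp (chromosome 11, 101362108 to 101362672) was the strongest in kidney, at 94.8 and 95.0, with 88.5 and 89.5 in liver. It was listed at 81.0 and 49.5 in brown adipose and at 78.6 in fed white adipose. Its 300 bp window held an HNF1 match, whose letters were found in 2.42% of fed kidney summits.

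Fbp1, the gene of the liver and kidney bisphosphatase, was at 96.3 in fed liver, 97.7 in fasting liver, and 95.0 and 93.9 in fed and fasting kidney. Spleen followed at 72.0 and 62.4 and lung at 67.3 and 63.9. Heart was at 55.9 and 38.8, brown adipose at 29.1 and 0.0, white adipose at 20.3 and 1.5 and muscle at 1.3 and 0.0. No other library reached the lowest of liver and kidney. The difference was 61.3 points (exact permutation p = 0.0357, one-sided, BH 0.564). Within 200 bp upstream and 300 bp downstream of the first start the summits held 80 and 169 tags in fed and fasting liver and 257 and 250 in kidney. The 95.0 of fed kidney came from a summit 17517 bp inside the gene, and the 38.8 of fasting heart from 14211 bp. Within 1 kb of the first starts these libraries were at 93.6 and 32.1.

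The liver and kidney differed inside Fbp1. Kidney had summits between 17000 and 18000 bp from the first start, at 95.0 fed and 90.4 fasting, where liver had none. Spleen had 69.5 and 22.6 there, and fasting heart 32.1. A locus at -873 bp (chromosome 13, 62889014 to 62889292, intergenic) was listed in liver alone, at 76.8 and 70.2. An intronic locus at 9927 bp (chromosome 13, 62878157 to 62878545) was listed at 76.8 and 70.1 in liver and at 52.8 in fasting kidney, and an intronic locus at 4190 bp at 74.2 and 59.3 in liver and 33.7 in fed kidney. Neither of these was listed elsewhere. In all, 6 loci around Fbp1 were called in both states of liver or of kidney with no row in another tissue.

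Pck1 encodes the enzyme often taken as the rate-setting step of the pathway, and serves glycerol synthesis in fat. Its promoter percentile was 93.8 in fed liver, 84.3 in fasting liver, 81.6 and 84.7 in kidney, 92.1 and 92.9 in white adipose, and 90.9 and 93.9 in brown adipose. No summit was listed in muscle, heart, spleen or lung. The values thus split into 4 tissues at 81.6 or more and 4 tissues at 0. Liver and kidney averaged 55.3 points above the rest, with an exact permutation p of 0.214, since both adipose tissues ranked above them.

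The adipose and the liver and kidney promoters of Pck1 differed in their upstream part. Summits between -1200 and -1000 bp were listed in the 4 adipose libraries only, at 87.0 in fed and 93.9 in fasting brown adipose and 92.1 and 89.8 in white adipose. They held 769 and 259 tags in brown and 282 and 154 in white adipose. At the start itself, within 100 bp, all 8 libraries of the 4 tissues had a summit. Between -600 and -400 bp, fed liver and kidney were at 81.8 and 70.1 and fasting liver and kidney at 84.3 and 84.7. Brown adipose was at 49.4 and 78.5 there and white adipose at 0.0 and 76.1.

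Liver had its own loci upstream of Pck1. One at -6042 bp (chromosome 2, 173146697 to 173147125, intergenic) had percentiles of 89.3 and 88.0 in fed and fasting liver. Another at -4787 bp (chromosome 2, 173148102 to 173148313, intergenic) had 83.9 and 74.5. Neither was listed in any other tissue. A stronger liver locus, at -9345 bp (93.0 and 96.1), was also listed in white adipose (75.1 and 78.9), brown adipose (40.4 and 22.6) and fasting spleen (43.1). A locus at 10623 bp past the start was listed at 65.9 and 76.2 in kidney, at 61.1 in fasting liver and in no other library. The strongest liver locus, at 7010 bp and just beyond the end of the gene, was called in all 16 libraries, from 55.2 in fasting heart to 98.9 in fasting liver. A locus at 12039 bp was the strongest kidney one, at 79.0 and 88.0, with 32.1 in fasting heart, 14.2 and 57.2 in spleen and none in liver.

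Tat is a liver enzyme that glucocorticoids induce. At its start (chromosome 8, 109990392 to 109990645) the percentile was 85.4 in fed and 87.8 in fasting liver, and no other tissue had a row in that locus. Within 3 kb, fed white adipose had 29.4 and fasting lung 17.1, and the other 12 libraries were at 0. Of the 8 loci around Tat that were private to liver or kidney, 7 had no row in kidney. The strongest, at 9695 bp and just past the gene (chromosome 8, 109999804 to 110000562), had 92.2 and 96.7 in liver. The locus at -3979 bp (chromosome 8, 109986358 to 109986614), whose sequence is printed above, had 76.7 and 87.7. The liver and kidney mean for the promoter was 39.4 points above the others, with an exact permutation p of 0.25, as kidney stood at 0.

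Sds degrades serine in liver. Its promoter percentile was 77.2 in fed and 83.3 in fasting liver. Heart had 57.6 and 36.8, brown adipose 6.1 and 43.8, fasting muscle 35.5 and fed white adipose 10.7. Fed kidney had 0.7, fasting spleen 0.4 and the others 0. Liver was the highest tissue, and the liver and kidney mean was 24.4 points above the rest with an exact permutation p of 0.179. Kidney was listed at upstream loci, which lie in introns of the neighbouring gene Sdsl. The locus at -7982 bp (chromosome 5, 120468291 to 120468864) had 92.3 and 94.3 in liver and 67.4 and 55.5 in kidney. The one at -4742 bp (chromosome 5, 120471450 to 120471982) had 76.3 and 82.6 in liver and 66.0 and 68.2 in kidney. Neither was listed in another tissue.

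Of the 4 genes with a promoter peak everywhere, Pcx, Ppargc1a and Fbp2 differed between their starts. Pcx supplies oxaloacetate for gluconeogenesis and for fat synthesis, and its best percentile ran from 94.5 in fed kidney to 99.9 in fasting white adipose. Alternative promoters of this gene are known. Its first start was the source in most tissues, with 81.3 and 90.6 in liver and 99.6 in both states of muscle. Starts 83874 bp downstream were at 95.9 and 95.3 in liver and 94.3 and 95.9 in kidney. Brown adipose had 83.0 and 84.7 there and white adipose 82.9 and 84.5. Fed muscle had 45.5, fed heart 33.6 and fasting spleen 9.6, and the remaining libraries 0. For this cluster of starts the difference was 60.0 points, and for the starts at 48338 bp 37.6 points, both with an exact permutation p of 0.0357, one-sided (BH 0.831). At 48338 bp liver had 84.4 and 90.8 and kidney 87.4 and 89.5. Both adipose tissues were close to them there, brown at 89.9 and 84.9 and white at 87.3 and 82.9. These per-start values were added after the promoter values had been seen.

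Within Pcx, an intronic locus at 26256 bp (chromosome 19, 4536444 to 4537114) was the strongest in liver, at 98.4 in both states. It was as high in brown adipose, at 99.2 and 99.3, and had 93.0 and 97.6 in white adipose and 80.3 and 86.4 in lung. Kidney had 20.3 and 22.1 there. Liver and fat thus shared this locus while kidney ranked far lower. An intronic locus at 89749 bp was listed at 76.8 and 78.2 in liver, 36.3 and 54.1 in kidney and nowhere else.

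Ppargc1a also differed by start. The percentile of its best summit ran from 76.4 in fasting white adipose to 91.9 in fed muscle. At the first start muscle had 91.9 and 89.2, heart 80.4 and 79.1, brown adipose 69.3 and 79.0, kidney 56.5 and 55.1, and lung 52.9 and 68.4. Liver, white adipose and spleen had no row there in either state. The starts 13804 bp downstream, which the printed CRE precedes, had a peak in all 16 libraries, with 77.1 and 86.3 in liver. An intronic locus at 56168 bp (chromosome 5, 51511461 to 51511925) was the strongest in liver, at 97.0 and 98.5, against 77.0 in fasting heart, the next highest library. Kidney was strongest at 121793 bp, past the end of the gene, at 92.1 and 91.4, a locus with 80.8 and 72.5 in liver and no row in another tissue.

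Fbp2 is the muscle form of the bisphosphatase. Its best percentile lay between 87.2 in fasting liver and 99.3 in fed spleen, and came from a start 2113 bp inside the gene in most libraries. At the first start muscle had 92.7 and 94.1, brown adipose 89.1 and 91.5, kidney 87.4 and 91.6, heart 83.8 and 75.6 and liver 69.9 and 76.7. Spleen had none there. An intronic locus at 16713 bp (chromosome 13, 62841380 to 62841943) was listed in kidney alone, at 90.3 and 91.8, and its 300 bp window held a forkhead match, whose letters were found in 4.16% of fed kidney summits. Since Fbp1 and Fbp2 are neighbours, the extended regions of both hold the internal Fbp2 start. Pck2, the mitochondrial carboxykinase, was between 92.3 in fed muscle and 99.7 in fasting lung and white adipose, and had no locus private to liver or kidney.

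By percentile of -log10 p at the best summit of each state, no member's promoter moved by at least 10 points after fasting in liver or kidney. In liver the shifts ran from -9.8 to 6.1 points, with 3 genes up and 6 down and a median of -0.2. In kidney they ran from -5.4 to 3.1, with 3 up and 5 down and a median of -0.4. Among promoters listed in at least 1 of the states, 10.3% rose and 15% fell by 10 points or more in fasting liver, and 4.94% rose and 4.53% fell in fasting kidney. Each shift compares 1 library with 1 library and has no replicate check. Ranked by fold enrichment, Pck1 fell by 60.3 points and Fbp2 by 15.2 points in fasting liver. The best summit can lie at another place in the other state, and single positions of Pck1 moved by more than 10 points. Within 100 bp of its start, liver went from 93.8 fed to 83.0 fasting. Between -600 and -400 bp, kidney went from 70.1 to 84.7.

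Across the 8 tissues, fasting minus fed was tested with an exact sign-flip permutation test, two-sided, whose smallest p is 0.00781. Fbp1 averaged 54.6 fed and 44.8 fasting, a difference of -9.9 points, down in 7 tissues and up in liver (exact permutation p = 0.0312, BH 0.913). An unadjusted p under 0.05 was found for 4.72% of all genes, and after adjustment none of those 1036 passed 0.05, the smallest BH value being 0.913. When summits within 50000 rows of smallest p alone were kept, the Fbp1 difference was 0.04 points. That cut removed its summits outside liver and kidney, of which the highest was 72.0 in fed spleen. It therefore could not show a fall in those tissues. The other 8 genes had p between 0.172 and 1.0.

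Around the genes, rather than at their starts, more loci rose than fell in rank in both fasting liver and fasting kidney. Loci were made by merging fed and fasting peaks of a tissue, with at least 1 at q under 0.01. Of 170 liver loci in the extended bodies of the 9 genes, 73 (42.9%) rose by at least 10 points and 35 (20.6%) fell. In the extended bodies of all coding genes 35.0% rose and 40.7% fell. In kidney 49 of 155 loci rose (31.6%) and 32 fell (20.6%), against 24.4% and 20.7% of all. Counting only loci listed in both states, 19 of 92 rose (20.7%) and 11 fell in liver, where 20.4% and 25.9% of all loci did. In kidney 28 of 102 rose (27.5%) and 15 fell (14.7%), against 19.4% and 16.1% of all. Most of the liver risers around the 9 genes thus had no row in the fed list. The same held over all coding gene bodies, where 63133 liver loci rose and 16585 of these were listed in both states.

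Tat had the largest share of risers in liver, 15 of 24 loci with 3 falling and a median shift of 30.7 points. The locus at -7749 bp went from 45.7 to 90.6, the one at -2554 bp from 54.4 to 80.1 and the one at 8208 bp from 54.0 to 83.1. A locus at 8900 bp was not listed in the fed state and was at 86.4 in the fasting state. The 3 that fell were absent from the fasting list. Those at 1172 and 1812 bp, in the gene body, were listed at 46.5 and 74.6 in fed liver, and the one at 12739 bp, past the gene, at 16.7. Of the 11 Tat loci listed in both states 5 rose and none fell. In Pck1, 7 of 15 liver loci rose and 2 fell, and 6 of the risers had no row in the fed list. Pcx had 29 risers and 13 fallers among 62 loci, and G6pc 5 and 3 among 13. Sds had 4 and 1 among 12, Ppargc1a 7 and 6 among 19 and Fbp1 6 and 5 among 20. Fbp2, with 1 and 3 among 6, and Pck2, with 0 and 1 among 4, had more fallers.

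**Figure D2:**
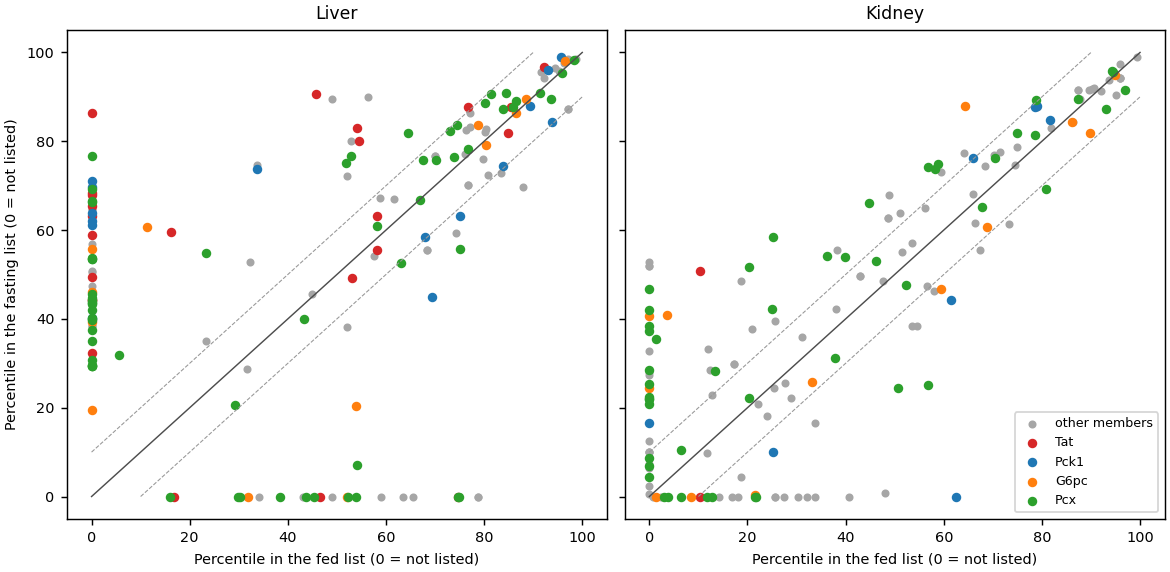
Percentile of every merged locus in the extended bodies of the 9 genes in the fed list (horizontal) and the fasting list (vertical) of liver and kidney, with 0 for a locus that was not listed, the solid line for equal percentiles and dashed lines 10 points to either side. In liver 73 loci lie at or above the upper dashed line and 35 at or below the lower one, and the Tat loci in red lie mostly above.

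The rank of a summit depends on the tags expected there as well as on those found, since the authors' p compares one with the other. The window from which the expected number was estimated is not given in the sources used here. Fold and p together give both numbers. At the best summit near the Pck1 start, fed liver had 79 tags. In fasting liver the highest promoter summit had 178, while the highest expected number near the start went from 19.2 to 101.4. Relative to the library's background, the expected tags of the Pck1 promoter were thus at 6.9 in fed and 35.9 in fasting liver. The log2 ratio of fasting over fed was 2.39, when the median over 16113 genes with a promoter row in both liver lists was 0.52. Only 7 genes had a higher ratio, with Pck1 at rank 8. Its fall in percentile, and a fall from 77.9 to 17.6 when ranked by fold, stood beside this rise in expected tags.

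Tat was at rank 59, rising from 14 expected tags in fed liver to 43.8 in fasting liver, a log2 ratio of 1.63. Pcx was at rank 245, from 6.5 to 15.9 and a log2 ratio of 1.29. These 3 of 9 genes rose at least 2-fold, as did 8.24% of all genes in liver. The log2 ratio of the other 6 lay between 0.32 for Pck2 and 0.79 for Sds. For G6pc it was 0.56, near the median. Summit tags were also higher in fasting liver for the median gene, by 0.84 on the log2 scale, although the backgrounds of the fed and fasting liver libraries were alike. Whether this general gain reflects the state or the library was not tested.

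In kidney the median log2 ratio was -0.01, and the 2-fold rise was reached by 0.0625% of all genes and by none of the 7 members with a row in both lists. Pck1 had the highest of these, at 0.34 and rank 251 of 15990, with expected tags of 41.6 fed and 52.2 fasting. Fbp1 had the lowest, at -0.16. These ratios take the highest expected number near the starts. Taken at the summit of highest percentile instead, the ratio in kidney was 0.42 for Fbp1 and 0.24 for Pck1, so their order turned. In liver that choice gave 1.98 for Pck1, 1.29 for Tat and 1.27 for Pcx. Over all libraries, the expected tags of Pck1 reached 20.7 times background in fed and 9.0 in fasting brown adipose, and 6.0 and 7.7 in white adipose. The log2 ratio of Pck1 in brown adipose was -1.21 (rank 14876 of 15230), against -0.73 for the median gene. In white adipose it was 0.35 (rank 205 of 15630), against a median of -0.32. Fasting liver was the highest of the 16 libraries for Pck1 and for Tat, where the next was fed liver at 5.0.

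**Figure D3:**
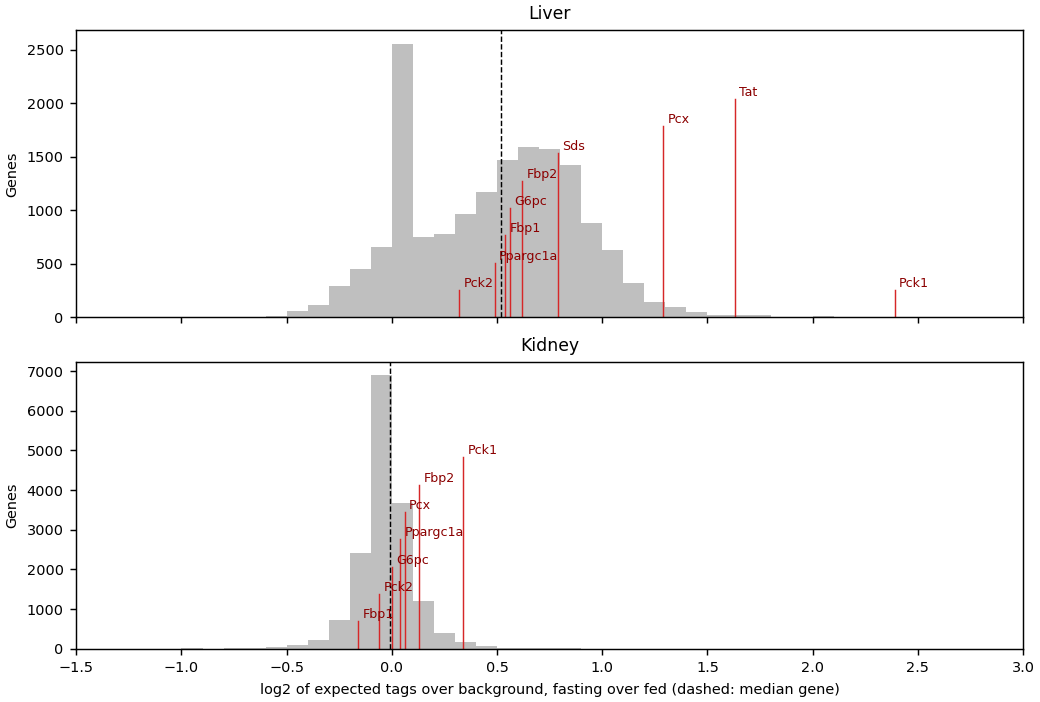
Number of genes (grey bars, 0.1 wide) by the log2 ratio of expected tags over background, fasting over fed, at promoters listed in both states of liver and of kidney. Red lines mark the members, at heights that only keep the names apart, and the dashed line the median gene, at 0.52 in liver and -0.01 in kidney, and Pck1, Tat and Pcx lie at 2.39, 1.63 and 1.29 in liver.

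Peaks per extended gene body, counted once per region at q under 0.01, followed the same tissue order for some genes. Tat had 15 in fed liver, 21 in fasting liver, 2 and 1 in kidney and at most 3 in any other library. Pck1 had 10 and 17 in liver and 7 and 7 in kidney, against 1 to 8 elsewhere. G6pc had 9 and 11 in liver and 13 and 11 in kidney, with 9 and 7 in brown and 10 and 10 in white adipose and at most 3 in the others. Fbp1 had 18 to 21 in the liver and kidney libraries and 7 to 11 elsewhere. Ppargc1a had most in fed brown adipose, 42, and in fasting kidney, 41, and least in white adipose and spleen, 6 or 7. Counts depend on depth and on the length of the list, which differ between libraries.

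Other genes of the pathway were read from lists. Of 20 shared enzymes and carriers, some of which also serve glycolysis, 18 had a promoter peak in all 16 libraries. In liver 1 of them rose by 10 points, G6pc3 from 72.8 to 84.1, and none fell. By liver minus the other tissues, Gpd1 was near the high end, at 94.0 against 88.6. At the low end, Ldhb was at 86.1 in liver and 93.3 in the other tissues and G6pc3 at 78.5 and 91.2. Of 23 regulators, Hnf4a, Onecut1 and Nr1h4 had the smallest p. Hnf4a had 99.3 in liver, 91.8 in kidney and 12.2 elsewhere, and Nr1h4, the bile acid receptor, 95.9, 88.7 and 18.7. The lowest by liver minus other tissues were Sik1, at 84.5 against 94.8, and Foxo3, at 96.0 against 97.7. Cebpb rose in fasting liver from 85.4 to 97.7 and Nr0b2, a repressor under bile acid control, went from 96.1 to 84.2. In kidney the glucagon receptor Gcgr went from 64.9 to 78.9. Onecut1, Cebpb, Nr0b2 and Gcgr are named because they make up these counts, after their values were seen. A list of 8 genes held enzymes of the opposite direction and regulators of glucose use, among them Gckr and Pdk4. Of these, Pklr, the pyruvate kinase of liver and kidney, was at 96.3 in liver, 96.6 in kidney and 11 elsewhere, again at the smallest p. Gckr followed at 90.9 in liver against 75.8. The hexokinases Hk1, at 80.9 against 98.2, and Hk2, at 63.2 against 95.7, were the lowest, and Hk2 fell in fasting liver from 72.8 to 53.7. After BH adjustment none of these listed genes passed 0.05 in either test. The median of the liver and kidney difference was -0.3 points for the shared enzymes and 0.4 for the 23 regulators. It was 1.9 for the list of 8 with the opposite direction, 24.4 for the 9 genes and 0.0 for all genes.

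The promoters whose pattern over the 16 libraries was most like that of each gene were sought among all coding genes. The correlations share libraries and depth and are given as a description. For Pck1 the nearest was Abcc2, an organic anion pump, with Pearson's r of 0.991. For Tat they were Cyp2c39, Rfx6 and Cyp3a57, with r from 0.963 to 0.977, and for Sds Apon, Atp6ap1l and Fmo9, from 0.857 to 0.874. Gm4952 was nearest to G6pc at 0.957, and Plxnb1 to Fbp1 at 0.939. For Pck2, Fbp2, Pcx and Ppargc1a, which were open everywhere, the nearest were Eef1a1 (0.977), BC052040 (0.883), Stt3a (0.982) and Dimt1 (0.919).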

How the data were processed

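According to their labels and methods, the authors aligned ATAC-seq reads to GRCm38 with Bowtie2 and called peaks with MACS2 in each library, keeping about 300000 rows. The deposited values are fold enrichment, a ratio, and -log10 p and -log10 q of the authors, each within 1 library. No counts were used, and depth is known only through the expected tags. Starts were those of GENCODE M21 on GRCm38, and sequences came from the RefSeq copy of GRCm38. The 9 genes and all lists were chosen with earlier results of these data known. Summit tags were solved from fold and p (whole within 0.01 for 100.0% of rows). The tissue test enumerates 28 choices of 2 tissues and the fasting test 256 sign flips, both run on 21951 genes with Benjamini-Hochberg adjustment and tested on simulated data. The p-values speak of these pools only.

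Named loci, fixed by rule, were the strongest of each extended gene body (10 kb to each side) in liver and in kidney, and up to 3 per gene called in both states of liver or of kidney with no row in another tissue. For each gene with a peak in at least 4 libraries, 3 similar genes were sought. Other loci were named after their values were seen, and 1 gene of the lists is not reported here. The searched glucocorticoid receptor letters TGTNCT were found in 61.1% of fed liver summits and are not marked. Python 3.11.15, numpy, pandas and scipy were used, with random seed 1.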

Additional observations from a re-analysis of the deposited data

Results flagged for a closer look

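For 3 genes the promoter percentile moved by at least 10 points up in 1 tissue and down in another after fasting, and these differences were not tested. G6pc rose by 20.3 points in heart and fell by 51.3 points in brown adipose. Sds rose by 37.6 points in brown adipose and fell by 20.8 points in heart. Its brown adipose values came from different summits, at 4910 bp from the first start in fed and 6413 bp in fasting. Neither lay within 1 kb of a start. Tat rose by 17.1 points in lung and fell by 29.4 points in white adipose. In the shifts of G6pc and Tat the lower value was 0, where no summit was listed. Background tags were 12.77 in fed and 6.76 in fasting brown adipose, 10.02 and 5.87 in white adipose, 4.92 and 5.84 in heart and 8.92 and 7.14 in lung, and the part of depth in these shifts was not tested.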

How the results depend on the processing

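The finding that 2 of the 9 genes had liver and kidney above every other tissue was 1 gene when peaks were ranked by fold, and the same number under the other alternatives run, including fed or fasting libraries alone and summits thinned to equal depth. Ranking by fold also gave 2 genes lower by 10 points in fasting liver and 1 in fasting kidney, where the main count was 0. Keeping the 50000 strongest rows gave 1 gene higher in fasting kidney. That gene was Pck1, whose fed kidney summit, at 81.6, was lost to the cut while the fasting one, at 84.7, was kept. The counts of genes with a promoter peak stayed within 1.5 times under every alternative. Signs turned for several differences, most of them near 0, the exceptions being Fbp1 and G6pc after fasting, at -9.86 and -6.59 in the report's setting. For fasting minus fed, a 1000 bp window gave 0.28 points for Pck1, 2.30 for G6pc and 0.30 for Tat. The 50000 strongest rows gave 9.85 for Pck1, 0.04 for Fbp1 and 0.30 for Tat. That cut sets weaker summits to 0, among them those of Pck1 in fed kidney and of Fbp1 outside liver and kidney. Equal depth gave 0.19 for Fbp2, 0.37 for Ppargc1a and 6.35 for Tat, and ranking by summit tags, chosen after seeing the data, 0.71 for Pck1. For liver and kidney minus other tissues, Ppargc1a was 2.17 with a 1000 bp window, 13.14 with the strongest rows, 0.35 at equal depth, 2.26 by summit tags and 0.81 in fasting libraries alone, and Fbp2 was 1.83 by summit tags and 2.31 in fed libraries alone. Leaving out 1 tissue at a time, fasting minus fed ranged from -0.84 to 0.97 for Pck1, -1.57 to 0.32 for Fbp2, -0.08 to 0.26 for Pcx, -2.39 to 0.86 for Ppargc1a and -3.85 to 2.79 for Tat. For Fbp1 it ranged from -11.47 to -7.12, and its exact permutation p was 0.0625 without heart, brown adipose, white adipose, spleen or lung. At equal depth the Fbp1 difference was -14.86 (exact permutation p = 0.312) and with q under 1e-06 it was -7.76 (exact permutation p = 0.0938). The causes were not tested. No paired analysis was possible within a tissue because each group has 1 library, and the fasting test pairs the states by tissue. Depth limits the values of 0, which say only that no summit was listed.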
